A study of Mus musculus with 3 samples.

Results

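In kidney rudiments that lack Fgfrl1, 9 genes of the retinoic acid pathway were followed: the aldehyde dehydrogenases Aldh1a1, Aldh1a2, Aldh1a3 and Aldh1a7, the binding proteins Crabp1 and Crabp2, the receptors Rara and Rarb, and the degrading enzyme Cyp26b1. Every probe of the array that the scanner files assign to 1 of these genes was used, which gave 11 of the 41174 probes and 9 of the 27745 gene names. RNA came from E12.5 kidney rudiments of C57BL/6 mouse embryos. Rudiments from Fgfrl1-/- embryos were compared with those from wildtype littermates (strain label wt), in 3 pools per genotype with 6 to 9 rudiments in a pool. No further allele or agent is named for either group. The Fgfrl1-/- allele is carried by every cell of the animal. Each Fgfrl1-/- pool, labelled with the green dye Cy3, shared 1 Agilent array with 1 wildtype pool, labelled with the red dye Cy5, and no array reversed this labelling (0 of 3). An effect of the dye and an effect of the genotype therefore cannot be told apart on these arrays.

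Retinoic acid is the active form of vitamin A. Retinol is oxidized to retinaldehyde, and retinaldehyde dehydrogenases of the Aldh1a family turn it into retinoic acid. Crabp proteins bind the product in the cytoplasm, the receptors of the Rar family, paired with an Rxr receptor, bind DNA and change the transcription of target genes, and Cyp26 enzymes break retinoic acid down. In the embryonic kidney the stroma is a known site of retinoic acid synthesis, and the signal is needed in the ureteric bud for expression of the receptor tyrosine kinase Ret and for branching.

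All values of change are log2 ratios of Fgfrl1-/- over wildtype after background correction and normalization, and the arrays carry the numbers 1, 2 and 3 of the pools in their labels. The probe for Fgfrl1, the gene that was inactivated, read −1.21, −1.51 and −1.83 on arrays 1, 2 and 3, and averaged −1.52 ± 0.31 (SD, n = 3) and an adjusted p of 0.0332 in limma's moderated test with Benjamini-Hochberg adjustment over all probes. Arrays 2 and 3 shared a slide, and array 1 came from a different one. The ratios of all probes correlated with a Pearson r of 0.713 between arrays 2 and 3, 0.222 between arrays 1 and 3 and 0.106 between arrays 1 and 2, so array 1 stood apart from the others. This correlation is across probes, which are not independent replicates. Calls that changed without array 1 are therefore given with their values for the 9 genes. That fit holds only arrays 2 and 3 of 1 slide, so its p-values measure no spread between slides. The scanner files flag 107 to 138 spots of an array as outliers and 0 as saturated, and 57.1% to 80.2% of the probes were well above background in a channel. Precision is limited by the number of arrays, and the p-values measure the spread between these pools.

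Aldh1a1 and Aldh1a7 fell in the Fgfrl1-/- rudiments, and no other gene of the 9 passed the test. Of the 11 probes, 2 were lower and 0 were higher at an adjusted p below 0.05. Over all 41174 probes, 164 (0.398%) were lower and 119 (0.289%) were higher. At an unadjusted p below 0.05 the count was 7 of 11 probes, against 15.9% of all probes. The genes were chosen with earlier results of these data known, and the study's own list of lowered genes already held Aldh1a1 and Aldh1a7. These counts are therefore a description and no test of the 9 genes as a set. The median log2 ratio of the 11 probes was −0.056, that of all probes 0.0037. Of the 11 probes, 10 were well above background in all 3 Fgfrl1-/- channels, with Rara above it in 2 of 3, and 11 of 11 were above it in all 3 wildtype channels. Since whole rudiments were measured, fewer cells that express a gene and less of its RNA in each cell cannot be told apart.

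**Figure D1:**
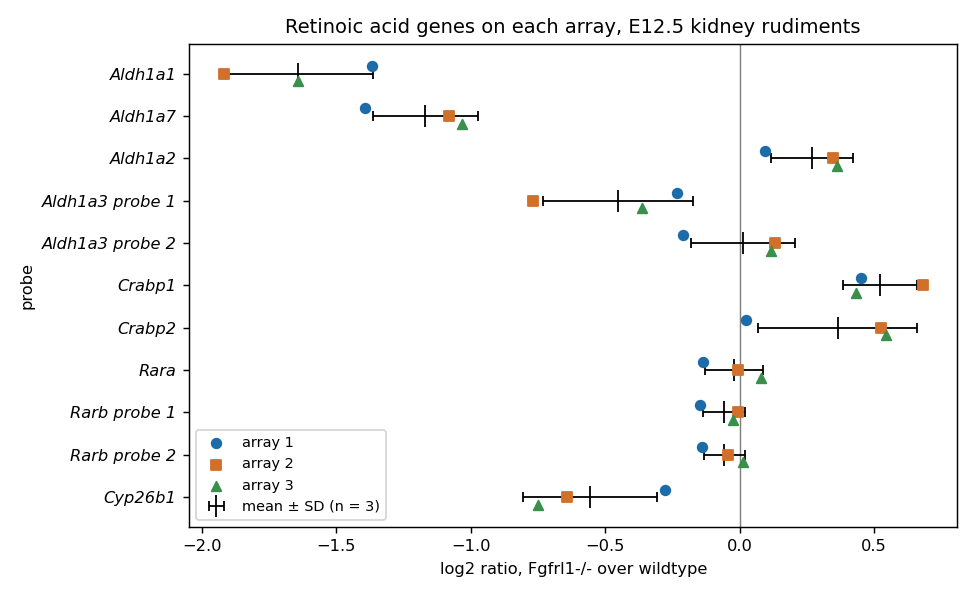
Log2 ratio of Fgfrl1-/- over wildtype (horizontal axis) for each of the 11 probes on arrays 1, 2 and 3 (points), with the mean ± SD of the 3 arrays (black). The points of Aldh1a1 lie between −1.92 and −1.37 and those of Aldh1a7 between −1.39 and −1.03, to the left of every point of the other genes.

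Aldh1a1 encodes a cytosolic retinaldehyde dehydrogenase. Its probe, A_51_P334942, lies at chr19:20710371-20710430 on the forward strand of mm8. The log2 signal was 7.27, 7.37 and 7.38 in the Fgfrl1-/- pools and 8.64, 9.29 and 9.03 in the wildtype pools of arrays 1, 2 and 3. All Fgfrl1-/- pools were below all wildtype pools, and the wildtype pools spread more widely than the Fgfrl1-/- pools. The ratio was −1.37, −1.92 and −1.64, with a mean of −1.64 ± 0.28 (SD, n = 3), which is 3.12-fold lower (adjusted p = 0.0274, limma). This was the 13th lowest mean of the 41174 probes. The paper also measured Aldh1a1 by qPCR and found it lower at E12.5, whereas it lists no qPCR for Aldh1a7. The array call for Aldh1a1 held in 10 of 16 alternative ways of processing the data, with means from −2.33 to −1.50. It was lost without array 2 (−1.50, adjusted p = 0.201) and without array 3 (−1.64, adjusted p = 0.450), and in both cases no probe of the whole array passed in limma (0 lower and 0 higher), although 3711 and 3141 probes had an unadjusted p below 0.05.

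Aldh1a7 is a rodent paralog of Aldh1a1. Its probe, A_51_P383399, lies on the reverse strand of the same chromosome, at chr19:20760160-20760219 of mm8, 49729 bases from the Aldh1a1 probe, and RefSeq lists 0 other protein-coding genes between the 2 genes. The log2 signal was 6.54, 7.05 and 7.10 in the Fgfrl1-/- pools and 7.93, 8.13 and 8.13 in the wildtype pools. Here too every Fgfrl1-/- pool was below every wildtype pool, with the lowest value of both genotypes on array 1. The ratio was −1.39, −1.08 and −1.03, with a mean of −1.17 ± 0.20 (SD, n = 3), which is 2.25-fold lower (adjusted p = 0.0327, limma). The call held in 9 of 16 alternatives, with means from −1.89 to −1.06. It too was lost without array 2 (−1.21, adjusted p = 0.282) and without array 3 (−1.24, adjusted p = 0.450).

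Because the 2 genes are close relatives, RNA of one could in principle bind to the probe of the other, and the probes themselves were compared. The longest run of bases that both 60-base probes hold is 8 bases long, shown here in capitals within 30 bases of each probe (bases 25 to 54 for Aldh1a1 and bases 1 to 30 for Aldh1a7), written 5′ to 3′ as the scanner file gives them:
Aldh1a1: ccctcagtgacTCCTTGAAgtactcaccac
Aldh1a7: tTCCTTGAActatgtaccatgcatgataac
In the best alignment without gaps, 21 bases of the probes matched. Neither probe shared a run of 15 bases, on either strand, with any other probe of the array. The whole transcripts were not compared, so how far RNA of one gene binds to the probe of the other was not tested. The ratios of the 2 probes were set against each other on each array, and Aldh1a1 minus Aldh1a7 was 0.027, −0.84 and −0.61 on arrays 1, 2 and 3, with a mean of −0.47 ± 0.45 (SD, n = 3). Thus both ratios were near each other on array 1, whereas Aldh1a1 was lower on arrays 2 and 3. An exact sign permutation test of this difference, 2-sided, gave p = 0.5 (adjusted p = 0.5 over 3 pairs of related genes compared), where 3 arrays cannot give less than 0.25.

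Both genes are also alike just before their start sites, which is why these sequences are shown. RefSeq lists 2 start sites for Aldh1a1 and 1 for Aldh1a7. The 100 bases before the second start site of Aldh1a1 (GRCm38.p6, chr19:20601868-20601967, forward strand) and before that of Aldh1a7 (chr19:20727557-20727656, reverse strand) are identical at 94 of 100 positions, and capitals mark the 6 that differ:
Aldh1a1: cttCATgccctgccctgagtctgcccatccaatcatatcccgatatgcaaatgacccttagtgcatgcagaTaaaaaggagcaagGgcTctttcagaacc
Aldh1a7: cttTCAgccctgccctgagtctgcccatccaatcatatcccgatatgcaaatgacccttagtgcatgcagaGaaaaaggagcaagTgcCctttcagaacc
In the 150 bases before this stretch the identity of the pair, in an alignment with gaps, was 49.1%. Both sequences hold the octamer ATGCAAAT at position −56 and CCAAT at position −72, counted from the start site. In the window of the first Aldh1a1 start site neither motif was found. Searched on both strands, the octamer occurs in 570 of 32851 RefSeq promoter windows of 300 bases (1.74%) and CCAAT in 12289 (37.4%). The window of Aldh1a2 holds the octamer as well, at position −84, and its 100 bases (GRCm38.p6, chr9:71215689-71215788, forward strand) are shown with it in capitals:
Aldh1a2: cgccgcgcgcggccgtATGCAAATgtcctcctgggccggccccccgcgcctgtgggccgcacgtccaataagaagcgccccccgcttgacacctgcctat
The Aldh1a2 window also holds CCAAT, at position −36. Over the whole stretch the similarity is low, since Aldh1a1 and Aldh1a2 were identical at 43.5% of its aligned positions, gaps included. These matches of letters are a description of the windows.

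Aldh1a2 encodes the retinaldehyde dehydrogenase that makes most of the retinoic acid of the early embryo and is expressed in the kidney stroma. Its probe, A_52_P58145 at chr9:71094684-71094743 of mm8, gave a log2 signal of 14.53, 14.83 and 14.72 in the Fgfrl1-/- pools and 14.43, 14.49 and 14.36 in the wildtype pools. All Fgfrl1-/- pools were above all wildtype pools, but by a narrow margin. The ratio was 0.095, 0.35 and 0.36, with a mean of 0.27 ± 0.15 (SD, n = 3), and it did not pass the test (adjusted p = 0.218, limma). The 95% confidence interval was 0.055 to 0.48. Median centring of the arrays in place of loess turned its direction (−0.24), and without array 1 it passed (0.36, adjusted p = 0.00481, limma). The probe shares a run of at most 16 bases with 3 other probes of the array.

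Aldh1a3, the third retinaldehyde dehydrogenase, was measured by 2 probes that gave different values. The first, A_52_P113518 at chr7:66287971-66288030 of mm8, had a log2 signal of 6.99, 7.04 and 7.15 in the Fgfrl1-/- pools and 7.22, 7.81 and 7.51 in the wildtype pools. The pools did not overlap between genotypes. Its ratio was −0.23, −0.77 and −0.36, with a mean of −0.45 ± 0.28 (SD, n = 3; adjusted p = 0.156, limma). This probe passed without array 1 (−0.56, adjusted p = 0.00125, limma) and did not pass with the scanner software's ratios (−0.95). The second, A_52_P87843 at chr7:66269849-66269908, gave −0.21, 0.13 and 0.12, with a mean of 0.012 ± 0.19 (SD, n = 3; adjusted p = 0.975, limma) and a 95% confidence interval of −0.23 to 0.25. Its sign differed between array 1 and the other arrays. This second probe was much brighter, with log2 signals of 10.80, 11.51 and 11.47 in the Fgfrl1-/- pools and 11.01, 11.38 and 11.35 in the wildtype pools. The mean of the dim first probe moved with the background correction, to −0.57 without subtraction and −0.69 with an offset of 0. No direction can be given for Aldh1a3 from the pair.

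**Figure D2:**
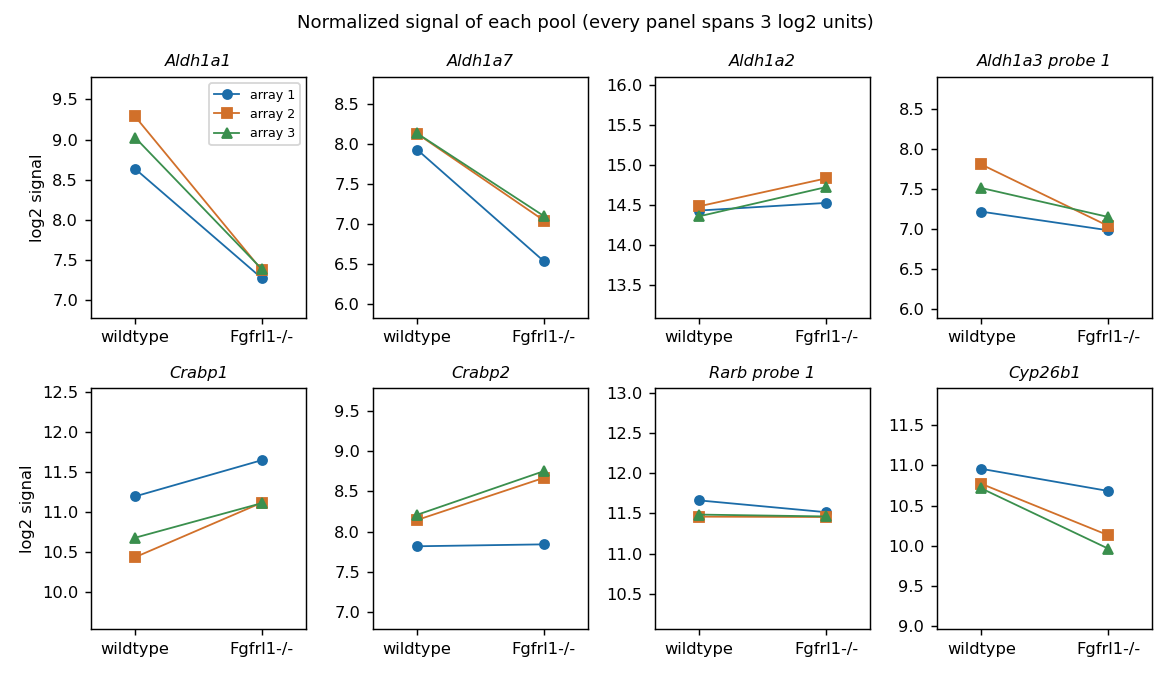
Log2 signal of each pool after normalization within and between arrays (vertical axis, 3 log2 units in every panel) in the wildtype and Fgfrl1-/- channels of 8 probes; a line joins the 2 pools of an array, and Aldh1a3 and Rarb are shown by their first probe. Every line of Aldh1a1 and Aldh1a7 drops by more than 1 log2 unit, whereas those of Rarb are nearly level.

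Crabp1 and Crabp2 encode cellular retinoic acid binding proteins. The Crabp1 probe (A_52_P185907, chr9:54566522-54566581 of mm8) had a log2 signal of 11.65, 11.12 and 11.11 in the Fgfrl1-/- pools and 11.19, 10.44 and 10.68 in the wildtype pools. The genotypes overlapped, but on each array the Fgfrl1-/- pool was higher. Its ratio was 0.45, 0.68 and 0.43, with a mean of 0.52 ± 0.14 (SD, n = 3), or 1.44-fold, and missed the threshold (adjusted p = 0.0726, limma). Median centring lowered Crabp1 to 0.22 (adjusted p = 0.938, limma), and without array 1 it passed (0.56, adjusted p = 0.00058, limma). The Crabp2 probe (A_51_P521283, chr3:88034687-88034746) gave 7.84, 8.67 and 8.75 in the Fgfrl1-/- pools and 7.82, 8.14 and 8.21 in the wildtype pools. Its ratio was 0.024, 0.53 and 0.54, with a mean of 0.36 ± 0.30 (SD, n = 3; adjusted p = 0.240, limma). The pools of array 1 were nearly equal for Crabp2, whereas those of arrays 2 and 3 were not, and without array 1 the probe passed (0.54, adjusted p = 0.000366, limma). Crabp1 minus Crabp2 was 0.16 ± 0.27 (SD, n = 3), and its exact sign permutation test, 2-sided, gave p = 0.5, again with 0.25 as the smallest value possible.

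The receptors showed little difference between genotypes, but of their probes only A_51_P202440 of Rarb was bright. Its log2 signal was 11.52, 11.46 and 11.46 in the Fgfrl1-/- pools and 11.66, 11.46 and 11.49 in the wildtype pools. In the Fgfrl1-/- pools Rara (6.44 to 6.47) and the second Rarb probe (6.44 to 6.75) were dim. The lowest levels counted as well above background in these channels were 5.85 to 6.10. Such dim probes could hide a change, so they say little on whether a receptor was unchanged. Rara, the alpha receptor for retinoic acid, was measured by A_51_P389724 (chr11:98786635-98786694 of mm8), which gave ratios of −0.14, −0.0065 and 0.081, with a mean of −0.020 ± 0.11 (SD, n = 3; adjusted p = 0.944, limma) and a 95% confidence interval of −0.21 to 0.17. The sign of Rara turned under median centring (0.082) and without array 1 (0.037). Rarb, the beta receptor, which is itself a target of retinoic acid signaling, was measured by 2 probes. The first, A_51_P202440 (chr14:15224264-15224323), is spotted 10 times on each array, of which 9, 10 and 10 spots were kept. It gave −0.15, −0.0046 and −0.023, with a mean of −0.058 ± 0.077 (SD, n = 3; adjusted p = 0.783, limma) and a 95% confidence interval of −0.24 to 0.12. The spots of this probe show the error within an array, with an SD of 0.122, 0.0476 and 0.0621 on arrays 1, 2 and 3. The second, A_52_P495759, is listed over a longer stretch of the chromosome than its own length (chr14:15341785-15368493) and gave −0.14, −0.043 and 0.013, with a mean of −0.056 ± 0.077 (SD, n = 3; adjusted p = 0.790, limma). The means of both Rarb probes were close to each other. Under median centring the first moved to −0.39 and the second to −0.0026, and neither passed.

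The promoter of Rarb carries a well-known retinoic acid response element, a direct repeat of the hexamers GGTTCA and AGTTCA with 5 bases between them. It is shown because Rarb serves as a readout of retinoic acid signaling. The repeat begins at position −53 in the RefSeq window, and capitals mark its hexamers in the 100 bases before the start site (GRCm38.p6, chr14:16575477-16575576, reverse strand):
Rarb: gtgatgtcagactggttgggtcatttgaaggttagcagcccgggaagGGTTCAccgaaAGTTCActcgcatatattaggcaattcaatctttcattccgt
Searched on both strands, this repeat occurs in 2 of the 32851 windows (0.00609%). It was found in none of the 10 other windows of these genes. Of the 9 genes, 7 had a window, with 11 windows in all; Aldh1a3 and Crabp2 were not matched.

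Cyp26b1 encodes a cytochrome P450 that inactivates retinoic acid. Its probe (A_51_P501844, chr6:84537616-84537675 of mm8) had a log2 signal of 10.68, 10.13 and 9.96 in the Fgfrl1-/- pools and 10.96, 10.77 and 10.71 in the wildtype pools. All Fgfrl1-/- pools were below all wildtype pools. The ratio was −0.28, −0.64 and −0.75, with a mean of −0.56 ± 0.25 (SD, n = 3), or 1.47-fold lower, and it did not pass (adjusted p = 0.0978, limma). Without array 1 it did (−0.70, adjusted p = 7.03e-05, limma).

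Without array 1, more of these probes passed, and so did many others. Aldh1a1 (−1.78), Aldh1a7 (−1.06), the first Aldh1a3 probe and Cyp26b1 were then lower, and Aldh1a2, Crabp1 and Crabp2 were higher at an adjusted p below 0.05. That is 4 lower and 3 higher of 11, beside 10.1% lower and 8.49% higher of 41170 probes tested. Since arrays 2 and 3 shared a slide, these adjusted p-values measure no spread between slides. With 1 value per slide, 0 of the 11 probes were lower and 0 were higher, but neither was any of all 41162 probes tested. With all 3 arrays, 4 of the 11 probes had Fgfrl1-/- levels below every wildtype level, against 7.18% of all probes, and 1 had levels above, against 6.75%. A ratio below 0 on all 3 arrays was seen for 5 of 11 probes (19.2% of all), and above 0 for 3 of 11 (19.0%).

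**Figure D3:**
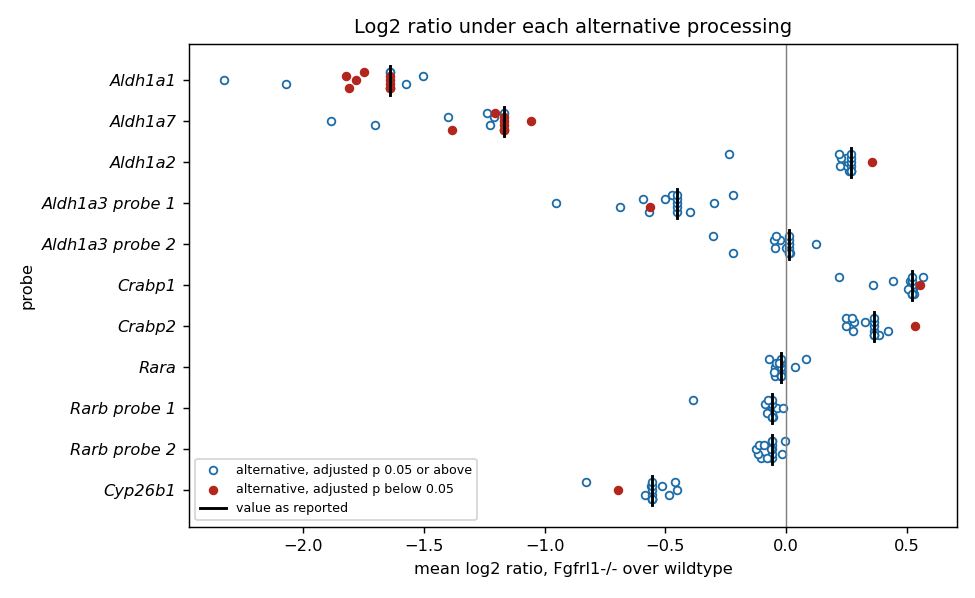
Mean log2 ratio of each probe (horizontal axis) as reported (black line) and under up to 16 alternative ways of processing (points), filled where the adjusted p was below 0.05. Every point of Aldh1a1 and Aldh1a7 lies below −1, and 10 and 9 of them are filled; Cyp26b1 lies between −0.83 and −0.45 with 1 filled point.

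By role and array, the mean ratio of the 4 retinaldehyde dehydrogenase probes was −0.43, −0.55 and −0.38 on arrays 1, 2 and 3, with Aldh1a1 and Aldh1a2 on opposite sides of 0. The binding proteins averaged 0.24, 0.60 and 0.49, and the 3 receptor probes −0.14, −0.018 and 0.024. The enzymes were thus split by gene, the binding proteins lay above 0 on every array, and the receptors lay close to 0. Of the receptor probes, those of Rara and the second of Rarb were dim. These differences between roles have no test of their own.

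The probes whose ratios over the 3 arrays were nearest to those of Aldh1a1 belonged to Dkk1, a secreted inhibitor of Wnt signaling (Euclidean distance 0.297), Lhx1os, a transcript antisense to Lhx1 (0.428), and Fgfrl1 itself (0.472). Dkk1 had a mean of −1.52 (adjusted p = 0.0201, limma). Nearest to Aldh1a7 were C1qtnf12 (0.118), Clec18a (0.143) and Akr1b7, an aldo-keto reductase (0.182), with means of −1.14, −1.19 and −1.10. The Clec18a probe was well above background in only 1 of 3 Fgfrl1-/- channels, so its ratios are less certain. Likeness over 3 arrays is a description only, since all these ratios come from the same pools.

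Further genes of the pathway were taken from a list of 63 genes by role, of which 62 had 108 probes. Of these, 1 probe was lower and 0 were higher, near the shares of all probes (0.398% and 0.289%), and the median was 0.017. Without array 1, 16 were lower and 14 higher, beside 10.1% and 8.49% of all probes. The probe that fell was that of Rbp4, the carrier of retinol in blood, with ratios of −0.69, −0.60 and −0.56, which averaged −0.62 ± 0.070 (SD, n = 3; adjusted p = 0.0429, limma). Its log2 signal was 6.73, 7.66 and 7.44 in the Fgfrl1-/- pools and 7.42, 8.26 and 7.99 in the wildtype pools, so the genotypes overlapped between arrays. The call for Rbp4 held in 5 of 16 alternatives, with means from −0.90 to −0.58, and was lost without array 2 and without array 3.

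Among 29 probes for retinol and retinal metabolism, 0 passed. The lowest was 1 of 3 probes of the alcohol dehydrogenase Adh1 (−0.53 ± 0.062, SD, n = 3, adjusted p = 0.0527, limma). Without array 1 it passed (−0.50, adjusted p = 0.000616, limma). A second Adh1 probe gave −0.24 and was also lower on all 3 arrays. The value of the last Adh1 probe (0.0095) carries little information, since that probe was well above background in 0 channels of either genotype. The highest was a probe of the retinol dehydrogenase Rdh14 (0.44 ± 0.69, SD, n = 3), with 1.23 on array 1 and −0.038 and 0.13 on the others. Its mean without array 1 was 0.047, and a brighter probe of Rdh14 gave 0.035. Rdh10, which makes retinaldehyde for the embryo and was added after its values were seen, gave −0.44 and −0.33 with 2 probes (adjusted p = 0.136 and 0.122, limma).

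Of the 11 probes of carriers, Rbp4 was the only one to pass. The highest ratio, of 1 of 2 Rbp7 probes, carries little information, since that probe was well above background in 1 Fgfrl1-/- channel and 0 wildtype channels. None of the 10 probes of other receptors passed. Rxra, a partner of the Rar receptors, had the highest value (0.54 ± 0.13, SD, n = 3, adjusted p = 0.0661, limma). This probe passed without array 1 (0.47, adjusted p = 0.00091, limma) and in the separate-channel fit (0.54, adjusted p = 0.0342, limma), and median centring lowered it to 0.18. The second Rxra probe gave 0.069, but it was dim and well above background in only 2 of 3 Fgfrl1-/- channels. Rxrg had the lowest value (−0.19), and passed without array 1 (−0.23, adjusted p = 0.0489, limma).

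The single probe for another degrading enzyme, Cyp26a1, gave −0.40, −0.15 and −0.35, with a mean of −0.30 ± 0.13 (SD, n = 3), but was well above background in only 1 of 3 Fgfrl1-/- channels. Its mean depended on the background correction, with −0.53 without subtraction, −0.92 with an offset of 0 and −2.38 in the scanner software's ratios, and it passed without array 1 (−0.25, adjusted p = 0.0416, limma). None of the 24 coregulator probes passed, and the lowest mean was −0.47 for 1 of 3 probes of Nrip1, which binds nuclear receptors. The other Nrip1 probes gave −0.0089 and 0.11, and the lowest passed without array 1 (−0.47, adjusted p = 0.00107, limma). Nor did any of the 33 probes of known retinoic acid response genes, which ran from −0.48 for Crip1 to 0.64 for the homeobox gene Meis2. The Meis2 value rested partly on array 1, with 1.07 there against 0.45 and 0.40, and median centring lowered it to 0.14. Without array 1, Meis2 (0.43, adjusted p = 0.00167, limma) and Crip1 (−0.56, adjusted p = 0.000317, limma) passed. Another probe of Meis2 gave 0.30, with 0.33, 0.33 and 0.24 on arrays 1, 2 and 3. Another probe of Crip1 gave −0.27, with 0.018 on array 1. The probe of Ret, which depends on retinoic acid in the ureteric bud, was not well above background in any channel.

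**Figure D4:**
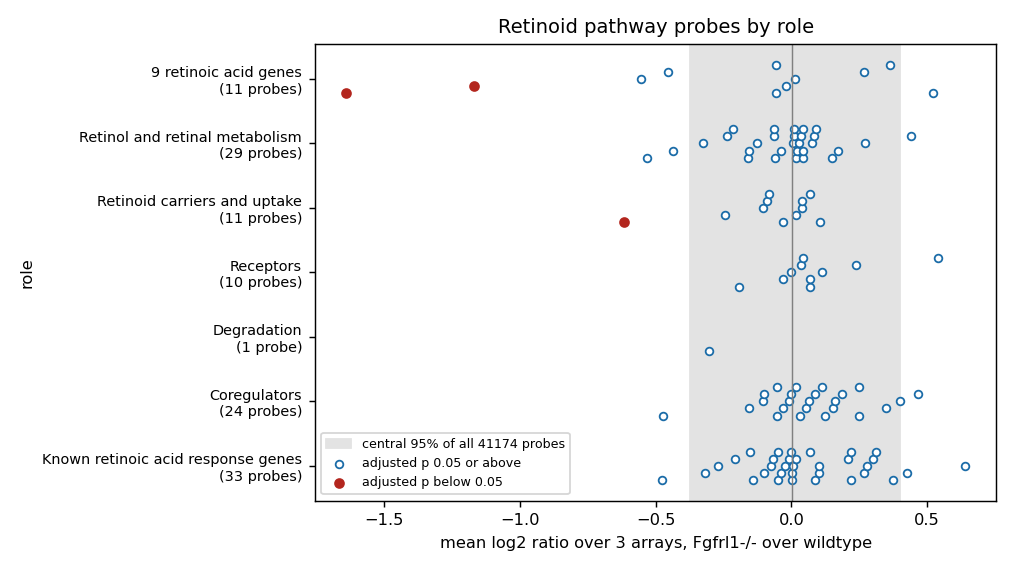
Mean log2 ratio over 3 arrays (horizontal axis) of the 11 probes of the 9 genes and of 108 further retinoid pathway probes by role, with filled points for an adjusted p below 0.05 and a grey band for the central 95% of all 41174 probes (−0.37 to 0.40). Aldh1a1 and Aldh1a7 are the 2 filled points of the top row, Rbp4 is the filled point of the carriers, and most other points lie in the band.

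Markers of the cell types that a rudiment could hold moved as follows. Of 19 stroma probes, 3 were higher (1 probe each of Foxd1, Pdgfra and Col1a1) and the median was 0.37. Below 0 were 3 of the 19, from Tcf21 (−0.48) and Tbx18 (−0.15 and −0.098). The summed linear signal of the stroma probes was 134010 to 166350 in the Fgfrl1-/- pools and 91113 to 93287 in the wildtype pools. This sum moved in the same direction as the Aldh1a2 and Crabp1 ratios, but so did the ureteric bud and macrophage sums given below. Bright probes weigh most in the stroma sum. The brightest, of Col1a1, had log2 signals of 15.95, 15.71 and 15.45 in the Fgfrl1-/- pools. The paper also measured Col1a1 by qPCR and found equal levels in both genotypes at E12.5. Of 15 cap mesenchyme probes, 2 were lower (Cited1 and Gdnf), with sums of 18692 to 19874 and 23067 to 24226. Of 13 ureteric bud probes, Wnt11 was lower and Krt8 was higher, with sums of 42449 to 56374 and 32216 to 39034. Of 14 probes for steroidogenic cells, which also express Aldh1a1 and Aldh1a7, 0 passed, the median was −0.065, and the sums were 8146 to 8854 and 8873 to 9540; both Cyp11a1 probes were not well above background in any channel. Of 10 macrophage probes 0 passed, with a median of 0.45 and sums of 4443 to 8193 and 3278.5 to 4309. None of the probes for liver, neural, skeletal muscle, endothelium or erythroid cells passed. The part of these cell types in the ratios of the retinoic acid genes was not tested.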

How the data were processed

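Per the labels, scanner images were read with Agilent Feature Extraction 10; per the file headers, arrays 2 and 3 were read with version 10.5.1.1, whereas array 1 had 9.5.3.1. The authors deposited median spot and background intensities of both channels, the log10 ratio of the scanner software, and a table of log2 ratios made with R and Bioconductor. The direction of that table (Fgfrl1-/- over wildtype) and its log2 scale were found by comparison with the intensities (r = 0.895 to 0.966); its centring is not stated, and the column medians are −0.018, 0 and 0.003.

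Each array held 45018 spots, of which 1639 control spots were removed. Intensities were corrected with normexp (offset 50) and normalized by loess (limma 3.58.1, R 4.3.3); channel levels also had Aquantile. Spots flagged as outliers were dropped and spots of a probe averaged. The log2 ratio was fitted with lmFit (intercept only) and eBayes over 41174 probes, 2-sided, with Benjamini-Hochberg adjustment and a threshold of 0.05. On simulated data for this comparison, over 41174 probes, 94 of 100 4-fold and 64 of 100 2-fold changes were recovered. Named were all probes of the 9 genes, pathway genes that passed, the highest and lowest of each role (1 gene is not reported here), Fgfrl1, markers of reported lists, and the 3 genes nearest to Aldh1a1 and to Aldh1a7 over the 3 ratios. The genes and lists were chosen with earlier results of these data known. Probe positions are those of mm8 in the files; no mm8 annotation was used, so exons were not assigned. Symbols (33102 of 41174 probes matched) and promoters came from RefSeq (GRCm38.p6). Sequences were compared with Biopython.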

Additional observations from a re-analysis of the deposited data

How the results depend on the processing

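In all, 16 alternatives were run, and slide as a random block was not run because no correlation could be estimated. Aldh1a1 and Aldh1a7 kept their direction in each of them. The count of lower probes among the 11 was 2 as reported, 0 with a normexp offset of 0, with the scanner software's ratios, with trend and robust variances and with 1 value per slide, 1 with the authors' table, and 0 to 4 when 1 array was left out; the count of higher probes was 0, and 0 to 3 when 1 array was left out. Of the further pathway probes, 1 was lower as reported, 2 with 1 probe per gene name, and 0 with no background subtraction, an offset of 0, the scanner ratios, the authors' table, median centring, dim probes left out, trend and robust variances, the separate-channel fit and 1 value per slide; 0 were higher, 1 in the separate-channel fit. When 1 array was left out, these counts ran from 0 to 16 lower and from 0 to 14 higher.

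The pools of an array are paired in the ratio; in the separate-channel fit with no replicate block (intraspot correlation 0.452), 2 of the 11 probes were lower and 0 higher. Reversed were Aldh1a2 with median centring (−0.24), Rara with median centring (0.082) and without array 1 (0.037; −0.071 to 0.037 over the arrays left out), and the second Aldh1a3 probe with the authors' table (−0.023), median centring (−0.30), 1 value per slide (−0.044), without array 2 (−0.047), without array 3 (−0.040; −0.047 to 0.12 over the arrays left out) and as a mean of both probes (−0.22). The cause was not tested. Over all probes, 164 lower and 119 higher calls (58.0% lower) became 91 and 2 (97.8%) with median centring, 32 and 4 (88.9%) with the authors' table, 46 and 14 (76.7%) with dim probes left out, 117 and 72 (61.9%) with no background subtraction, 6 and 0 with trend and robust variances, 237 and 226 in the separate-channel fit, 4172 and 3494 without array 1, and 0 and 0 with an offset of 0, the scanner ratios, 1 value per slide, and without array 2 or 3, where 4852, 6118, 3449, 3711 and 3141 probes had an unadjusted p below 0.05 (6541 as reported, limma).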
